A study of Homo sapiens with 8 samples.

Results

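SETD3 encodes the enzyme that methylates a histidine of actin, and its own locus is described here as it appears in 8 CUT&RUN peak lists. The members are the peaks that overlap the annotated span of SETD3, on chromosome 14 from 99397748 to 99486458 in hg38 (88711 bp), or the 50 kb on either side. There were 66 such peaks among the 263613 of the 8 lists, 55 of them in the span itself and 11 in the flanks. In CUT&RUN a nuclease is tethered to an antibody bound in permeable cells, and the fragments it cuts loose are sequenced.

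All libraries came from HCT-116, a human colorectal carcinoma line. The Flag antibody was used on cells labelled for wild type Flag-tagged actin, in 1 library of control cells and 2 libraries of SETD3 knockout cells, KO1 and KO2. An antibody against BRG1, the ATPase of SWI/SNF chromatin remodellers, was used in 1 control library and in KO1 and KO2. Each arm also had 1 library made with IgG, an antibody with no chromatin target, on control cells. The Flag arm's IgG library is titled with the word Empty, and the labels do not say whether those cells held the actin construct. The labels do not say how SETD3 was knocked out or whether KO1 and KO2 are separate clones. With 1 control library per antibody there is no replicate check of a control, and no test of knockout against control was made.

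SETD3 has a SET domain, the fold of many lysine methyltransferases, but its known substrate is a histidine of actin, and this methylation is known to favour actin filament assembly. SETD3 is also known as a host factor that enteroviruses need to replicate. Transcription of SETD3 runs towards lower coordinates, so the lower annotated end is the end of the transcript. Its start lies next to that of CCNK, which encodes cyclin K, the partner of the transcription kinases CDK12 and CDK13, and which is transcribed the opposite way.

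The gene starts of SETD3 and CCNK are shown first, because the widest SETD3 peak of the 8 lists lay there: it covered the CCNK start and stopped 72 bp upstream of the SETD3 start. In the RefSeq promoter table of GRCh38.p14 the starts are 99480859 for SETD3 and 99481409 for CCNK, 550 bp apart. A longer annotated model carries the span of SETD3 5599 bp further, across the CCNK start. The 250 bases before each start are printed 5′ to 3′ on the strand of the gene. For SETD3 (chr14:99480860-99481109, minus strand) capitals mark the 179 bases inside the BRG1 control peak. For CCNK (chr14:99481159-99481408, plus strand) all 250 bases lay inside the BRG1 control peak, and capitals mark the 152 bases inside the BRG1 KO2 peak.
SETD3: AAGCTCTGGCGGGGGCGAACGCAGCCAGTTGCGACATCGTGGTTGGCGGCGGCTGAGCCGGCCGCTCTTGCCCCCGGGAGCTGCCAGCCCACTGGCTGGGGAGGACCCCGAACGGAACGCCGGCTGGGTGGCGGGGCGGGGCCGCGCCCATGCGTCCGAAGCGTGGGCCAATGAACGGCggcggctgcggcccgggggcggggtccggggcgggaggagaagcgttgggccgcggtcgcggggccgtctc
CCNK: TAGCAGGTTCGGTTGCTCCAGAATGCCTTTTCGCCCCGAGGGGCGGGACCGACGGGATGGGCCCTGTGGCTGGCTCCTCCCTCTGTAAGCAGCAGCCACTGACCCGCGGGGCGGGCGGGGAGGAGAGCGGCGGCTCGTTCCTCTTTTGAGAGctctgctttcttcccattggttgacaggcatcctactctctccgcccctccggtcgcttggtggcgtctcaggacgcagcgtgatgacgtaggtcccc

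This BRG1 control peak ran from 99480931 to 99481520 (590 bp) and had a total signal of 21257. The BRG1 KO2 peak ran from 99481111 to 99481310 (200 bp) and had a total signal of 7818. It began 2 bp past the end of the SETD3 sequence and so covered none of it. The BRG1 KO1 list, the Flag-actin lists and both IgG lists held no peak over either sequence. Within its own list the peak ranked at the 84.7 percentile of total signal in the control and at the 41.2 percentile in KO2.

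Both sequences were rich in G and C, at 77.2% for SETD3 and 65.2% for CCNK, against a median of 58% over the 35116 promoters of the table. SETD3 held 35 CG dinucleotides in 250 bases and CCNK 20, against a median of 11. Letters were searched on both strands. GGGCGG, the GC box, matched 3 times at SETD3 and 4 times at CCNK, and 42.6% of all promoters hold it in the same 250 bases. CCAAT matched 1 time in each, and 32% of promoters hold it. Neither TGANTCA, the AP-1 letters, nor TATAAA was in these windows, and 6.57% and 10.7% of promoters hold them.

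SETD3 held more peaks in the knockout lists than in the control list of the same antibody. The span held 7 BRG1 peaks in control cells and 12 in each of KO1 and KO2. Away from the gene start these were 6, 12 and 11. The BRG1 arm IgG list held 0, which allows up to 1.17 peaks per 10000 of that list. Per 10000 peaks of each list, this came to 1.29 for the BRG1 control, 4.91 for KO1 and 3.65 for KO2. The ratio to control was 3.82 for KO1 (95% exact conditional interval 1.39 to 11.5) and 2.84 for KO2 (1.03 to 8.52). These intervals treat peaks as independent counts and cover counting error only.

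For Flag-actin the span held 11 peaks in KO2, 3 in KO1 and 2 in control cells, and the Flag arm IgG list of control cells held 8. Per 10000 peaks of the list these were 2.97 in KO2, 1.07 in KO1, 0.50 in the control and 3.78 in the IgG. The ratio to control was 2.13 for KO1 (interval 0.244 to 25.5) and 5.95 for KO2 (1.30 to 55.3). The IgG list had a ratio of 7.57 to the Flag-actin control (1.51 to 73.1). KO1 and the control thus differed by less than counting error, and the IgG library of control cells stood above both KO libraries on this scale. In unscaled counts its 8 peaks were below the 11 of KO2. The list names carry 0.005 for IgG and 0.01 for the other lists, so rates per 10000 peaks rest on unlike thresholds.

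The background for these counts was taken over all 20037 protein-coding genes. A gene was called higher when it held at least 3 peaks in both KO lists and at least 2 times the scaled control count in both, with a control of 0 counted as 3. SETD3 met this rule for BRG1, as did 0.614% of genes, and for Flag-actin, as did 0.953%. Both rules were met by 16 genes, 0.0799% of all. SETD3 was the shortest of them, and the only one of the 16 with no peak in the BRG1 arm IgG list. In the Flag arm IgG list, however, SETD3 and UBE3D held the most of the 16, with 8 each. The others held between 1 and 6 there.

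**Figure D1:**
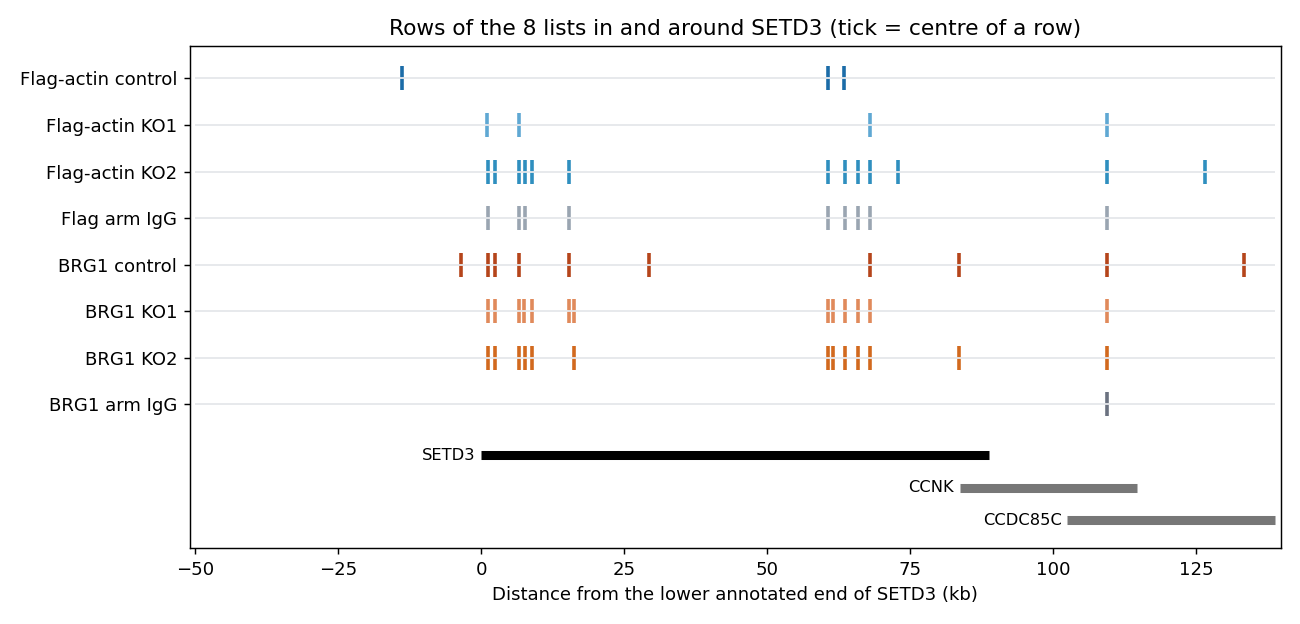
Peaks of the 8 lists (ticks at peak centres) against distance in kb from the lower annotated end of SETD3, with the spans of SETD3, CCNK and CCDC85C as bars. Most peaks of the BRG1 KO lists, Flag-actin KO2 and the Flag arm IgG line up: 11 of the 12 BRG1 KO1 sites are in BRG1 KO2, and 10 of the 11 Flag-actin KO2 sites and all 8 IgG sites are in a BRG1 KO list. Flag-actin KO2 alone has a peak at 72.8 kb, and the BRG1 arm IgG has a single peak, outside SETD3.

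The peaks fell at few places. Touching or overlapping peaks of the 8 lists formed 16 sites in the span, of which 13 were held by at least 2 lists, 9 by at least 4 and 3 by 6. No site in the span was held by more than 6 lists. Sites are named here by the distance of their lower border from the lower end of SETD3.

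A first set of 7 recurrent sites lay between 99398641 and 99413940, within 15.3 kb at the transcript end of the gene, and held 29 of the 55 peaks. A second set of 5 lay between 99458201 and 99465840, within 7.64 kb, a stretch with 22 peaks, 1 of which was a Flag-actin control peak between the sites. The sites of these sets begin at 0.893, 2.29, 6.45, 7.43, 8.76, 15.2 and 16.1 kb, and at 60.5, 61.4, 63.4, 65.7 and 68.0 kb. Between the sets, 44.3 kb (49.9% of the span) held 1 peak, found in the BRG1 control list alone. Exon positions were not used here. Whether the sites coincide with exons, and whether the recovered DNA was chromatin of the SETD3 locus itself, was not tested, and this limit holds for every SETD3 peak described.

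The sites at 0.893, 6.45 and 68.0 kb were each held by the same 6 lists: Flag-actin KO1 and KO2, the Flag arm IgG and the 3 BRG1 lists. These 3 were all the Flag-actin KO1 peaks in the gene, and each was also in the Flag-actin KO2 and Flag arm IgG lists. The Flag-actin control list was absent from all 3 sites. Its 2 peaks lay at 60.5 kb, a site of 5 lists, and at 63.2 kb, where no other list had a peak.

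Of the 12 BRG1 KO1 sites, 11 were also in BRG1 KO2. Of these 11 sites, 7 had no BRG1 control peak: those at 7.43, 8.76, 16.1, 60.5, 61.4, 63.4 and 65.7 kb. Whether the BRG1 control list reached as low as the KO peaks at these sites is given below with the limits of the lists. The Flag arm IgG list of control cells held 4 of the 7. All 8 Flag arm IgG sites were in a BRG1 KO list, and 7 of them in both. Of the 11 Flag-actin KO2 sites, 10 were in a BRG1 KO list and 8 in the Flag arm IgG list. The sites absent from the BRG1 control were thus in part present in a library of control cells.

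The BRG1 control list held 6 of its 7 SETD3 sites in common with a BRG1 KO list. The remaining peak lay at 29.2 kb, from 99426921 to 99427100, with a total signal of 4471, near the lowest of its list (4164). The site at 15.2 kb was held by the BRG1 control, BRG1 KO1, Flag-actin KO2 and the Flag arm IgG, and not by BRG1 KO2.

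SETD3 peaks were wide for the knockout lists. All 55 were over 50 bp, from 70 to 590 bp, while peaks over 50 bp made up 31.1% of the BRG1 KO1 list, 41.3% of BRG1 KO2, 48.2% of Flag-actin KO1 and 59.4% of Flag-actin KO2. Counting peaks over 50 bp alone, 3 genes (0.015%) had at least the 12 of SETD3 in BRG1 KO1, 15 (0.0749%) in BRG1 KO2, 45 (0.225%) had at least 11 in Flag-actin KO2 and 7 (0.0349%) at least 8 in the Flag arm IgG. For BRG1 in control cells, 2.7% of genes had at least 7, and in Flag-actin KO1 and the Flag-actin control 2.76% and 19.1% reached the counts of SETD3. Among 5234 other genes of 0.5 to 2 times its span, 0 reached SETD3 in BRG1 KO1, 3 in BRG1 KO2 and 182 in the BRG1 control. In the Flag arm, 0 reached it in the IgG library of control cells, 5 in KO2, 142 in KO1 and 1382 in the Flag-actin control. Every SETD3 peak passed the cut at 50 bp, which favours SETD3 in these ranks. Ranks over peaks of all widths were not taken.

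The other genes at that level in BRG1 KO1, named after their values were seen, were NSMCE2 and UBE3D. NSMCE2, which encodes a SUMO ligase, is 275261 bp long and held 75 BRG1 peaks over 50 bp in control cells against 13 in KO1 and 29 in KO2. UBE3D, a ubiquitin ligase gene of 185040 bp, held 5, 14 and 15, and 11 in the BRG1 arm IgG list. SETD3 had 0 in that IgG list. In the Flag arm IgG list SETD3 and UBE3D each held 8, and NSMCE2 held 3.

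The borders of the SETD3 peaks repeated between libraries. At 8.76 kb the peak ran from 99406511 to 99406600 in BRG1 KO1, BRG1 KO2 and Flag-actin KO2. At 63.4 kb it ran from 99461191 to 99461350 in all 4 lists that held it. At 68.0 kb the lower border, 99465701, was the same in all 6 lists, and the upper borders lay within 30 bp. The site at 0.893 kb was the most variable, with lower borders spread over 180 bp and upper borders over 320 bp. Peak borders in these lists fall on a 10 bp grid.

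Between BRG1 KO1 and KO2, 9 of the 11 overlapping pairs of SETD3 peaks had both borders the same. Over the genome 18.1% of 2360 such pairs of peaks over 50 bp did. The shares over the genome given here are of pairs not matched to those of SETD3 in peak width. Flag-actin KO2 had both borders in common with BRG1 KO2 in 6 of 9 pairs, against 30% over the genome, and with BRG1 KO1 in 5 of 10, against 30.1%. Flag-actin KO1 and KO2 had 0 of 3, against 28.1%. Flag-actin KO1 had 0 of 3 with each BRG1 KO list, against 35.0% and 35.3%. The Flag arm IgG had 2 of 8 with BRG1 KO1 and 3 of 7 with BRG1 KO2, against 33.7% and 33.8%. Among these pairs, the shares above the background were those between the BRG1 KO lists, between Flag-actin KO2 and either BRG1 KO list, and between the IgG and BRG1 KO2. The BRG1 control was also above it, on few pairs. It had 2 of 5 with BRG1 KO1 and 1 of 5 with BRG1 KO2, against 11.9% and 9.95%. With Flag-actin KO2, Flag-actin KO1 and the Flag arm IgG it had 2 of 5, 1 of 3 and 1 of 4, against 20.1%, 23.2% and 23.8%.

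Counted by gene, 145 genes held 1 such same-border peak of the BRG1 KO lists, 7 genes held 2, and SETD3 held 9. No gene held between 3 and 8. The number of overlapping pairs in each gene, which was 11 at SETD3, was not taken into account. The 7 genes, named after their values were seen, were C6orf132, GSN, HBB, LDLRAD3, LRRC27, TRIM49C and UBE3D.

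**Figure D2:**
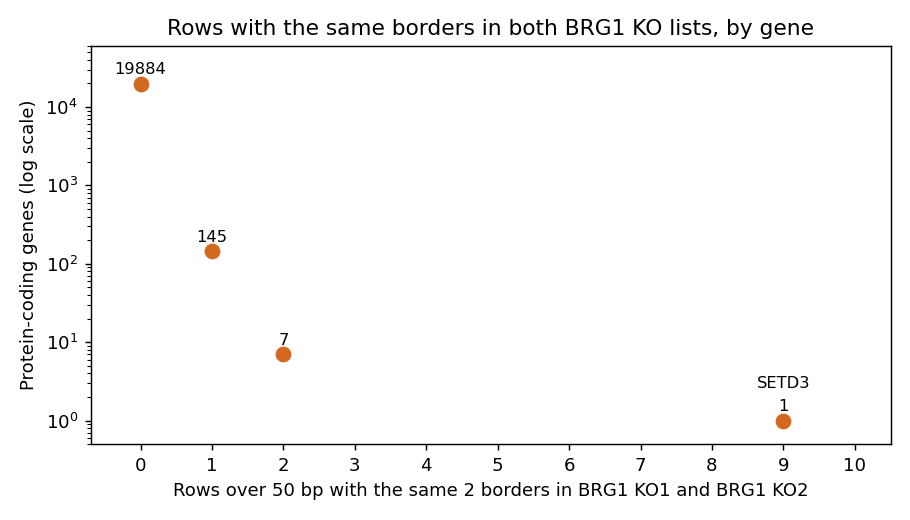
Number of protein-coding genes (y axis, log scale) by how many peaks over 50 bp have the same pair of borders in BRG1 KO1 and BRG1 KO2 (x axis). SETD3 stands alone at 9, and the next genes are at 2.

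Signal was ranked within each list, because no source used here states how the deposited values were scaled. Where deposited totals of different lists are set side by side below, their common scale is unknown. In each list the maxima rose in whole steps of one size, which differed between lists, from 4.38 in the BRG1 control to 21.5 in the Flag-actin control, so a value in steps is given as well. By median, the SETD3 peaks were of middling rank in the BRG1 lists, Flag-actin KO1 and the Flag arm IgG. They ranked higher in Flag-actin KO2 and lower in the Flag-actin control. Their total signal lay between the 11.4 and 76.6 percentiles of the list in BRG1 KO1 (median 51.8) and between 34.6 and 82.2 in BRG1 KO2 (median 58.1). In the BRG1 control they lay between 12.5 and 84.7 (median 48.7). In Flag-actin KO2 the median was 73.6, in KO1 50.8, in the Flag arm IgG 47.3 and in the Flag-actin control 21.0.

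The highest total signal in SETD3 of Flag-actin KO2 and of both BRG1 KO lists was at 0.893 kb, close to the transcript end. It was 62406 in Flag-actin KO2, 44402 in BRG1 KO1 and 43453 in BRG1 KO2. The BRG1 control had 10519, Flag-actin KO1 7266 and the Flag arm IgG 7340. The maxima were 39 steps in Flag-actin KO2, 22 and 23 in BRG1 KO1 and KO2, 13 in the BRG1 control, 9 in Flag-actin KO1 and 6 in the IgG. The Flag-actin KO2 and BRG1 KO libraries were the high ones at this site in both units. By maximum, BRG1 KO1 was higher at 68.0, 65.7 and 8.76 kb, with 38, 29 and 24 steps.

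The next sites did not all follow that order. At 68.0 kb the maximum was 38 steps in BRG1 KO1, 16 in KO2 and 20 in the BRG1 control, and 22, 5 and 11 in Flag-actin KO2, KO1 and the IgG. At 6.45 kb it was 20 in the BRG1 control, 11 in KO1 and 19 in KO2, and 28, 11 and 21 in Flag-actin KO2, KO1 and the IgG. At 65.7 kb the IgG library reached 24 steps, above Flag-actin KO2 at 8 and BRG1 KO2 at 13, and below BRG1 KO1 at 29. The order of the libraries changed from site to site.

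**Figure D3:**
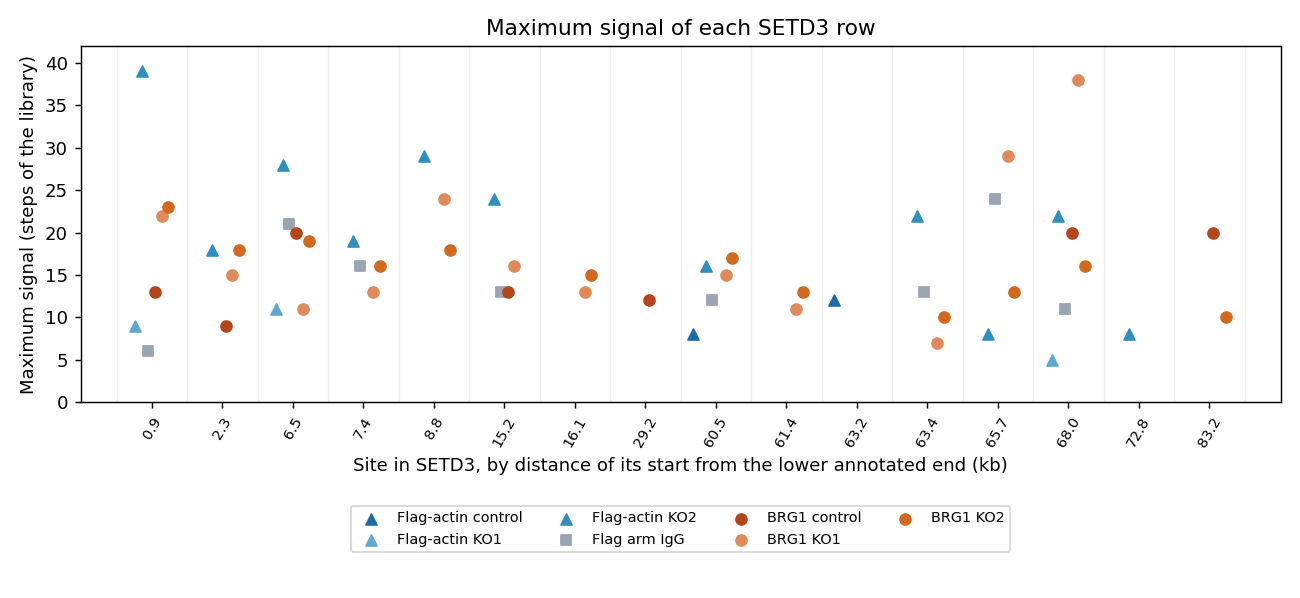
Maximum signal of each SETD3 peak in steps of its library (y axis) at the 16 sites, ordered by distance in kb from the lower annotated end (x axis). BRG1 lists are circles, Flag-actin lists triangles and the Flag arm IgG squares. Values run from 5 to 39 steps, and the IgG squares lie among the antibody values.

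At the sites where 1 BRG1 control peak met 1 KO peak, the total signal could be set side by side. Against KO1, 5 SETD3 sites had ratios of KO to control between 1.11 and 4.22, while the median over 3141 such pairs of peaks over 50 bp was 0.815 (quartiles 0.582 to 1.21). Over all 17657 pairs of any width it was 1.40 (0.774 to 2.25). Against KO2, the 4 sites other than the gene start had ratios between 1.43 and 4.27, with a median over 5305 pairs of 0.889 (0.625 to 1.21), and of 1.18 (0.816 to 1.86) over all 21341. The gene start had 0.368. In steps the same totals stood differently. At 0.893 kb control, KO1 and KO2 had 2400, 3850 and 4780, and at 2.29 kb 1060, 1130 and 2180. At 6.45 kb they were 1400, 590 and 1210, and at 68.0 kb 1960, 2710 and 1350. At 15.2 kb the control had 1160 and KO1 1080, and at the gene start the control had 4850 and KO2 860. At 6.45, 15.2 and 68.0 kb a KO library was therefore below the control in steps and above it in deposited units.

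The lists also reach down to different levels. The Flag-actin control list stopped at a total signal of 25771, and those of Flag-actin KO1 and KO2 at 4650 and 5879. Of the KO peaks in SETD3, 0 of 3 in KO1 and 2 of 11 in KO2 were at or above the control's lowest value. With the same limit set in steps (1200), these were 0 and 9. The Flag arm IgG list stopped at 4894, and its highest total in SETD3 was 12565, or 1900 in steps. That peak lay below the control's limit in deposited units and above it in steps. For BRG1, the control list reached lowest in deposited units (4164, against 6228 and 5182) and highest in steps (950, against 540 and 570). At or above the higher limit in deposited units SETD3 held 3, 12 and 12 peaks in control, KO1 and KO2, and in steps 7, 7 and 8, of 54419, 13404 and 17654 peaks in the lists. Some of the 7 sites in both BRG1 KO lists and not in the BRG1 control lay under its limit of 950 in steps. KO1 and KO2 had 670 and 800 at 16.1 kb, 670 and 780 at 61.4 kb, and 800 and 900 at 63.4 kb. At 7.43 kb KO1 alone was under it, with 600. In deposited units all 7 were above the control's lowest value in both KO lists. The part of these limits in the counts was not tested further.

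The flanks and the neighbouring genes held no such sets. Of the 11 flank peaks, 7 were a single site from 99507081 to 99507130, in the overlap of CCNK and CCDC85C, which every list but the Flag-actin control held, the BRG1 arm IgG included. The maximum of that IgG peak was 162 steps, and the highest maximum in SETD3 in any list was 39. The other 4 flank peaks were each in 1 list.

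In peaks per 10 kb of annotated span, SETD3 had 0.789, 1.35 and 1.35 in BRG1 control, KO1 and KO2. CCNK had 0.644, 0.322 and 0.322, and CCDC85C, which encodes a coiled-coil protein, 0.385, 0.288 and 0.288. BCL11B, a zinc finger transcription factor gene on the other side, had 0.389, 0 and 0.0972, and HHIPL1 0.132, 0 and 0.132. These densities are not scaled to list length, and the order of the lists at CCNK and CCDC85C depends on that. Per 10000 peaks of the list, BRG1 control, KO1 and KO2 had 1.29, 4.91 and 3.65 at SETD3, 0.735, 1.23 and 0.913 at CCDC85C, and 0.368, 0.410 and 0.304 at CCNK. The control was the lowest at SETD3 and CCDC85C on this scale, and the highest at BCL11B on both.

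Flag-actin density in control, KO1 and KO2 was 0.225, 0.338 and 1.24 at SETD3. It was 0.673, 0.288 and 0.577 at CCDC85C, 0.486, 0.194 and 0 at BCL11B, and 0.921, 0 and 0.263 at HHIPL1. The CCNK values were 0, 0.322 and 0.322, which is the shared site alone. The Flag arm IgG had 0.902 at SETD3, 0.192 at CCDC85C, 0.322 at CCNK and 0 at BCL11B and HHIPL1. The genes of the region with more Flag-actin peaks in the control than in either KO list were thus CCDC85C, BCL11B and HHIPL1.

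**Figure D4:**
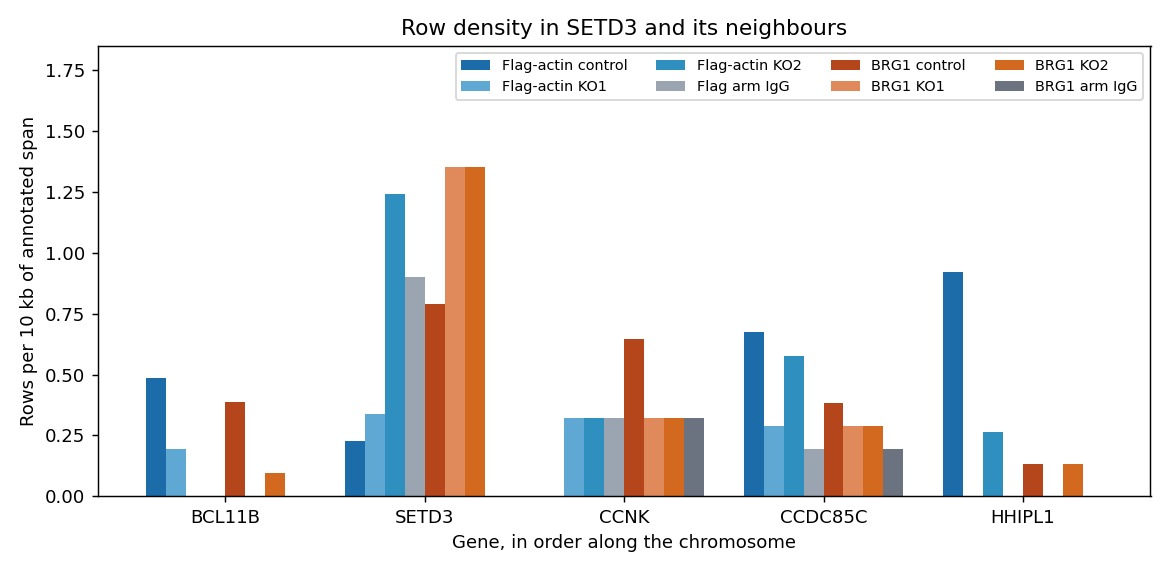
Peaks per 10 kb of annotated span (y axis) in SETD3 and the protein-coding genes around it, in chromosome order (x axis), 1 bar per library. Both BRG1 KO bars of SETD3 stand at 1.35, above every bar of the other genes.

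The genes whose counts over the 8 lists were nearest to those of SETD3 were taken among genes of 0.5 to 2 times its span. The measure was the sum of absolute differences of square-root counts, and lower is nearer. TESK2 was nearest at 6.53, followed by GADL1 at 6.78, FKBP5 at 6.81, EPHA4 at 6.93 and HS1BP3 at 6.97, against a median of 14.0 over the 5234 genes. TESK2, a protein kinase gene, held 4, 4, 9 and 6 peaks in Flag-actin control, KO1, KO2 and IgG, and 7, 3, 6 and 5 in the matching BRG1 arm lists. In unscaled counts, none of the 5 held more peaks in both BRG1 KO lists than in the BRG1 control. Per 10000 peaks of the list, GADL1, FKBP5 and EPHA4 did stand above the control in both. In control, KO1 and KO2 they had 1.29, 2.46 and 2.13, 1.29, 1.64 and 3.04, and 1.10, 2.05 and 1.83. TESK2 and HS1BP3 were above it in KO2 alone. Each of the 5 held at least 1 peak in the BRG1 arm IgG.

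Genes of related function were counted in the same way. A list of 17 took in the histidine methyltransferases METTL9, METTL18 and CARNMT1, the SET domain genes SETD4 and SETD6, and enzymes that modify actin. These enzymes were NAA80, which acetylates the actin N-terminus, ACTMAP, which trims it, the MICAL oxidases and the reductase MSRB1. The 6 actin genes, among which are the substrates of SETD3, completed it. Of the 17, 0 met the rule for higher in both KO lists for BRG1 and 0 for Flag-actin, against 0.614% and 0.953% of all genes. Of the 17, 10 had a BRG1 peak in control cells, 5 had one in KO1 and 11 in KO2; over all genes these shares were 54.7%, 31.3% and 38.5%. The median BRG1 count of the list was 1, 0 and 1, and the median Flag-actin count was 1 in each of the 3 libraries.

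METTL9, which methylates histidines in several proteins, held 1 peak in each of the 8 lists, and METTL18, whose substrate is a ribosomal protein, held 0 in each. CARNMT1 held 1 or 2 in every list. MICAL2 had 9, 1 and 5 BRG1 peaks in control, KO1 and KO2, and MICAL3 10, 8 and 7. ACTB, the cytoplasmic beta-actin gene, held 6, 5 and 5 BRG1 peaks and 5 in each IgG list, and ACTG1 held none in the BRG1 arm. SETD6, a lysine methyltransferase gene of 8364 bp, had 8 BRG1 peaks in KO2, 0 in KO1 and 2 in control cells. The count of SETD6 was high in 1 KO library, whereas that of SETD3 was 12 in each.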

How the data were processed

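The data were 8 peak lists from CUT&RUN of HCT-116 cells, called per library. The submitters' processing notes give hg38 and list SEACR and MACS2, BWA, bedtools 2.30.0, deepTools, SAMtools, FastQC 0.12.0 and Trim Galore 0.4.5, without settings. The deposited signal values give each peak's total and maximum in SEACR's layout. How the signal was normalized was not given in the sources used here. The authors' list names carry the word stringent and 0.01, or 0.005 for IgG, so list lengths do not measure binding. Sequencing depth is unknown. The step of a list is the largest value of which its maximum signals are whole multiples, within 0.05 steps for those below 200 steps. It held for 100% of these values.

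Peaks on all contigs were kept (21158 to 54419 per list), and a peak counted for a gene at 1 bp of overlap. Gene spans came from the RefSeq table of GRCh38.p14, the build of hg38, and promoter sequences from the RefSeq promoter table of the same build, in which SETD3 and CCNK both matched. Counts were scaled per 10000 peaks of a list. Intervals are exact conditional (95%). Python 3.11.15, numpy 2.4.6, pandas 2.3.3 and scipy 1.17.1 were used. Overlap counting was checked on simulated intervals with bedtools 2.31.1 and gave 0 differences.

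Named genes were SETD3, the protein-coding genes that overlap its window, the nearest beyond it on each side, the 5 genes nearest in counts, and the list of 17. SETD3 and the lists were chosen with earlier results of these data known. Alternatives changed the scaling, the peaks kept, the region, the overlap and the KO libraries.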

Additional observations from a re-analysis of the deposited data

How the results depend on the processing

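The mean KO to control ratio of BRG1 peaks in SETD3 was 3.33 ± 0.693 (SD, n = 2) and stayed above 1 in all alternatives run. It was 1.71 with no scaling to list length, 6.51 without peaks that overlap the same arm's IgG list and 5.50 without those that overlap either IgG list. With 50 kb added on either side it was 2.53, and for peaks over 50 bp 6.90. At 6.51 and 6.90 the counts in control, KO1 and KO2 stayed at 7, 12 and 12, of lists of 35106, 7065 and 13359, and of 39191, 7597 and 13557. At 5.50 they fell to 3, 4 and 5, of 33973, 6839 and 12912. The rise of these ratios above 3.33 therefore came from the list lengths. Limits on total signal were added after the data were seen, and gave 4.37 in deposited units and 3.79 in steps. With the limit in steps SETD3 held 7, 7 and 8 peaks in control, KO1 and KO2. That ratio therefore came mainly from the list lengths of 54419, 13404 and 17654. Leaving out 1 KO library gave 2.84 to 3.82. For Flag-actin the ratio was 4.04 ± 2.70 (SD, n = 2). It ranged from 2.13 without KO2 to 5.95 without KO1, and was 1.80 without peaks that overlap the same arm's IgG list, where KO1 held 0 peaks, KO2 3 and the control 1. The regions in both BRG1 KO lists and not in the BRG1 control numbered 7 of 12 in the window, and 3 of 4 without regions that overlap either IgG list. Of these 3, those at 16.1 and 61.4 kb were below the lowest total of the BRG1 control list in steps, in both KO lists. For Flag-actin they numbered 4 of 4, of which 1 was the site outside SETD3, and 0 without regions that overlap either IgG list. With 1 KO library they ranged from 4 to 12 for Flag-actin and stayed at 7 for BRG1. No paired analysis was possible because each antibody has 1 control library and no test was made.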

Other observations

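AURKB, a mitotic kinase gene of 5845 bp on chromosome 17, and SETD6 held dense sets of BRG1 peaks in a single KO library each. AURKB had 8 BRG1 peaks in KO1, 1 in KO2 and 0 in control cells, and 0 in the IgG and Flag-actin lists. SETD6 had 8 in KO2 and 0 in KO1. In each gene the 8 peaks were all over 50 bp. Per 10 kb of span they came to 13.7 for AURKB in KO1 and 9.56 for SETD6 in KO2, against 1.35 for SETD3 in either. Both genes were chosen after their values were seen.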
